A study of Mus musculus with 6 samples.

Results

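The collagen genes of mouse liver were compared between adult and young animals. Members were all protein-coding rows of the deposited gene table whose symbol names a collagen chain (Col, a type number, a and a chain number). This gave 44 genes among 32597 genes listed, of which 21870 are protein-coding. The 6-month group and the 3-week group were wild type male C57BL/6 mice, an inbred strain, bought from a vendor and kept free of specific pathogens; no treatment is named. Per the labels, each age has 3 libraries, and each library pools equal amounts of liver RNA from 3 mice, so single animals are not resolved. The young age is 3 weeks in the sample titles, 3 to 4 weeks in the age field and 1 month in the series title.

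Collagens are extracellular proteins whose chains wind in groups into a rigid helix, which requires long repeats of a glycine followed by a pair of other residues. Fibrillar collagens form the banded fibres that give tissue its tensile strength. Type IV collagen forms the open network of basement membranes, and the multiplexins Col15a1 and Col18a1 lie at basement membrane zones. In liver, fibrils are concentrated around portal tracts and in the capsule, a loose matrix lies along the sinusoids, and excess fibrillar collagen is the substance of fibrosis. Stellate cells and portal fibroblasts are known as its main sources.

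The members were sorted by protein family into 11 fibrillar, 8 basement membrane (6 type IV chains and the 2 multiplexins) and 25 other genes. The coding sequences of GENCODE M21, which do not use expression, set the fibrillar genes apart from the rest but not the basement membrane genes from the others. In the longest coding sequence of each gene, codon triplets that open with a glycine codon (GGN) were followed without a break. The longest such run had between 216 and 344 triplets in the 11 fibrillar genes, with a median of 338. In the 6 type IV genes it had between 39 and 66 triplets, and the repeat was split into 23 to 27 runs of 3 triplets or more. Members of the other class overlap these values, such as Col16a1 with a longest run of 52 triplets among 23 runs. Among all genes outside the fibrillar class the longest run was at most 113 triplets, found in Col9a1, Col9a2, Col9a3 and Col22a1. Col3a1 had the longest run of all, 344 triplets, in a coding sequence of 1465 codons with the stop.

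**Figure D1:**
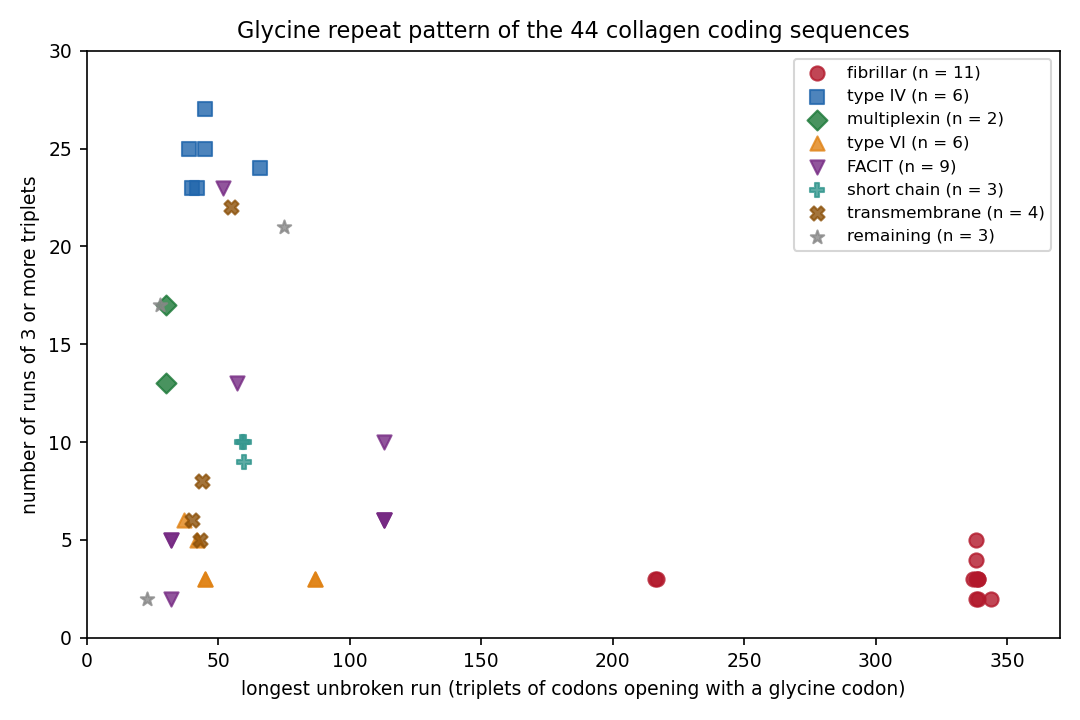
Longest unbroken run of codon triplets that open with a glycine codon (horizontal axis) against the number of runs of 3 or more triplets (vertical axis), 1 point per collagen gene, marked by family. The 11 fibrillar genes lie at 216 triplets or more with 2 to 5 runs, while the 6 type IV genes lie at 66 or less with 23 to 27 runs.

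Levels are FPKM, fragments normalised for transcript length and for the number of mapped fragments, which can be compared between genes because they are per length. The authors deposited 1 FPKM value per gene and age, combined from the 3 libraries, so no value per library and no standard deviation can be given, and whether libraries of the ages overlap cannot be seen. The words rose and fell are kept for genes with a q-value under 0.05 in the authors' own Cuffdiff test, from the authors' deposited table. The median log2 change of the 16290 genes that the authors tested was 0.0017. The liver label was checked with 8 hepatocyte markers: 7 were between 112 and 6800 FPKM at 6 months and between 106 and 8081 at 3 weeks, and albumin, Alb, is listed at 0 at both ages. A listed 0 in this table is therefore not taken as absence.

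More collagen genes fell than rose in adult liver. Of the 44 genes, 31 were tested by the authors, and of these 10 fell and 2 rose, while 19 were not called. Among all genes tested, 3.08% fell and 3.74% rose in 6-month against 3-week liver. The share that fell was 32.3% of the tested collagens, and the share that rose was 6.45%. Of the tested collagens, 26 of 31 had the lower value at 6 months, called or not. Their median log2((6-month FPKM + 1)/(3-week FPKM + 1)) was -0.13, a scale that compresses the change of genes under 1 FPKM. At least 1 FPKM at either age was reached by 18 of the tested collagens, of which 9 fell and 1 rose, where 3.48% of all genes so filtered fell and 3.99% rose. Of these 18, 7 passed only through the 3-week value and could therefore only be lower. Of the 7, 5 fell: Col4a5, Col5a1, Col5a2, Col6a1 and Col6a2. Col1a1 and Col13a1 were the others and were not called. With at least 1 FPKM required at both ages, a limit added after the values were seen, 4 of 11 fell and 1 rose, against 2.9% and 3.38% of all genes. The 4 were Col3a1, Col1a2, Col4a1 and Col4a2. With a minimum of 5 FPKM at either age, 2 of 4 collagens fell, Col3a1 and Col4a1, and none rose, against 3.45% and 4% of all genes. At a q-value under 0.01 the 18 gave the same counts of 9 and 1, where 2.21% of all genes fell and 2.96% rose.

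By class, 4 of 9 tested fibrillar genes, 4 of 7 tested basement membrane genes and 2 of 15 other tested genes fell. Whether the classes differed was not tested. Of the 12 called members, 9 shared a q-value of 0.00189, the smallest in the authors' deposited table. For Col5a1 and Col25a1 it was 0.0035 and for Col4a4 it was 0.0123 in the authors' deposited table. In bulk liver RNA, fewer cells of a type and less RNA per cell cannot be told apart.

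**Figure D2:**
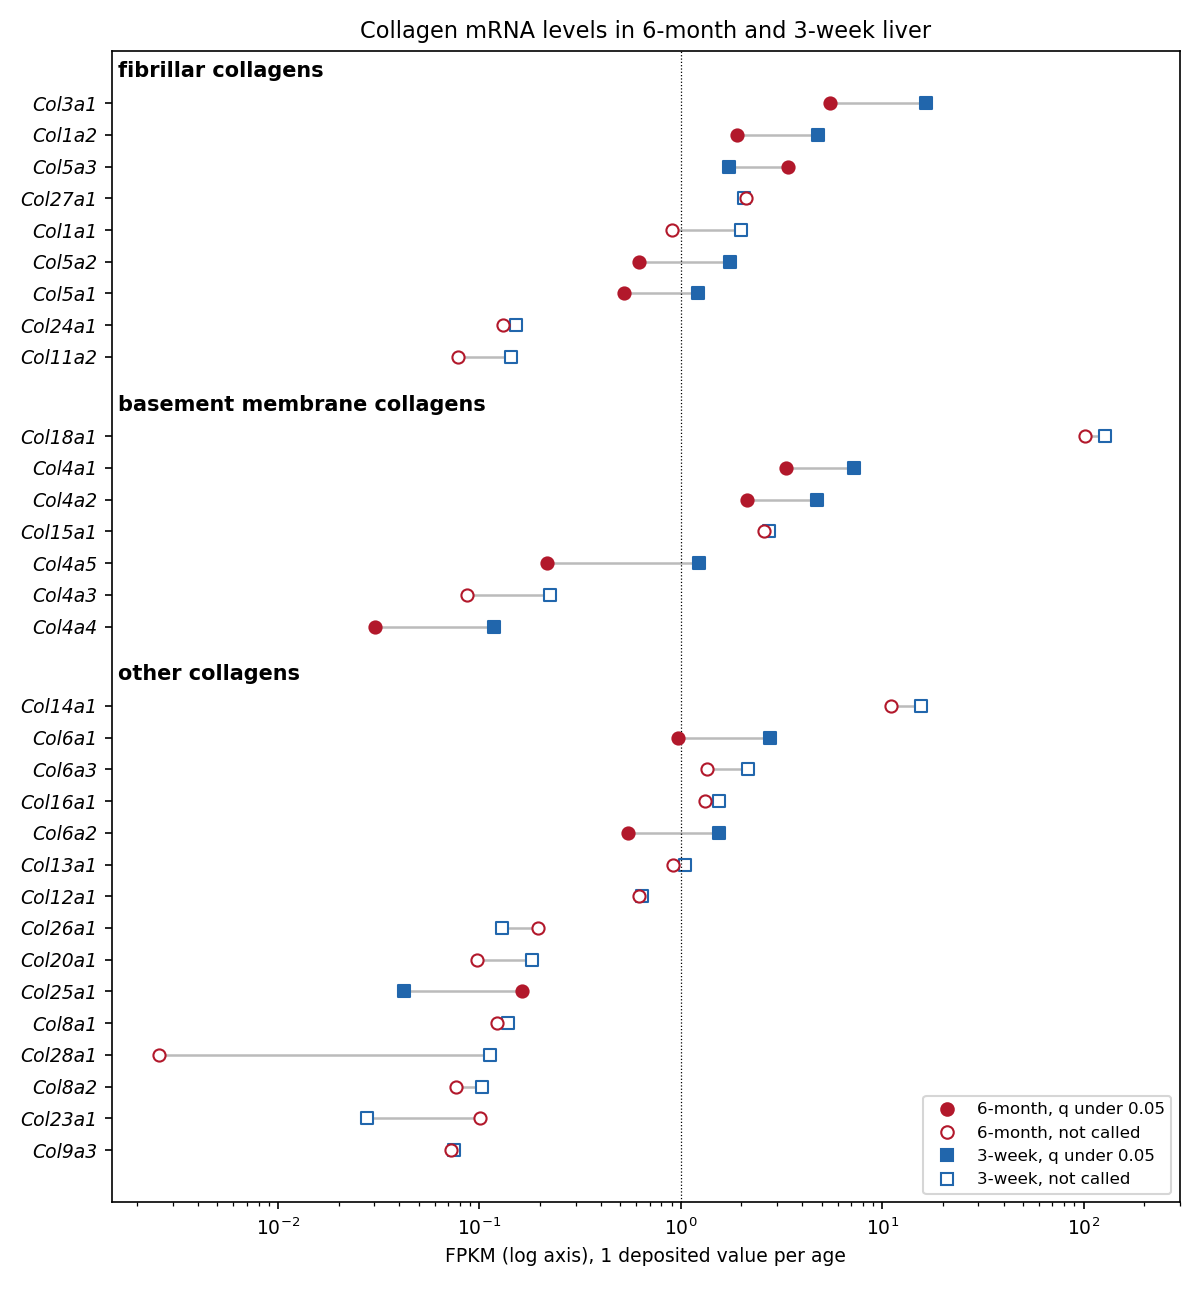
FPKM of the 31 collagen genes tested by the authors (log axis, 1 value per age), by class, with red circles for 6-month and blue squares for 3-week liver; filled symbols have a q-value under 0.05 in the authors' deposited table and the dotted line marks 1 FPKM. Red lies left of blue in 26 of 31 genes, and Col5a3 and Col25a1 are the filled pairs with red on the right.

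Among fibrillar collagens, Col3a1 had the highest level at both ages. Its product, type III collagen, forms the fine reticular fibres of liver. Col3a1 stood at 5.48 FPKM in 6-month and 16.5 FPKM in 3-week liver, so that the adult level was 33.3% of the young one, a log2 change of -1.43. It fell by 10.98 FPKM, more than any other fibrillar gene. Type I collagen, the main protein of coarse fibres, is built from Col1a1 and Col1a2. Col1a2 fell to 1.89 FPKM in 6-month liver, against 4.82 in 3-week liver. Col1a1 had 0.903 FPKM in 6-month and 1.98 FPKM in 3-week liver, which is 45.5% of the young level. It was not called: the authors' deposited table lists q = 0.073.

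Type V collagen is a minor fibrillar type that sits inside type I fibrils and sets their diameter. Its chains went in opposite directions. Col5a1 fell to 0.522 FPKM in 6-month liver, against 1.22 in 3-week liver. Col5a2 fell to 0.621 FPKM in 6-month liver, against 1.76 in 3-week liver. The remaining chain, Col5a3, rose to 3.42 FPKM in 6-month liver, against 1.74 in 3-week liver, and reached 196% of the young level. The summed level of the 3 type V genes was 4.56 FPKM in 6-month and 4.72 FPKM in 3-week liver. In order of level, Col5a3 was the fourth collagen gene of 44 at 6 months and the thirteenth at 3 weeks.

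The remaining fibrillar genes were not called. Col27a1, which codes for a chain with a shortened helix, had 2.1 FPKM in 6-month and 2.07 FPKM in 3-week liver. Col24a1, of the same subfamily, had 0.131 and Col11a2 0.0786 FPKM in 6-month liver, against 0.152 and 0.144 in 3-week liver. Col27a1 and Col24a1 had runs of 217 and 216 triplets, shorter than the 337 or more of the other fibrillar genes. The cartilage collagens Col2a1 and Col11a1 were at 0.00106 and 0.0164 FPKM in 6-month liver and at 0.00101 and 0.00659 in 3-week liver, and the authors did not test them.

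The promoter windows of Col3a1 and Col5a3 are shown because these are the most abundant fibrillar gene that fell and the fibrillar gene that rose. Sequences are those of RefSeq on GRCm38.p6, from 250 bases before to 50 bases after the start of the transcript, written 5′ to 3′ on the strand of the gene. The table held 38 windows for 35 of the 44 members. Col3a1 lies on chromosome 1 at 45311538 to 45349706 (ENSMUSG00000026043), with its window at chr1:45311288-45311587 on the plus strand. Col5a3 lies on chromosome 9 at 20770050 to 20815067 (ENSMUSG00000004098), with its window at chr9:20815018-20815317 on the minus strand. Capitals mark CCAAT, which reads ATTGG on the other strand, and GGGCGG, which reads CCGCCC there. CCAAT factors and Sp1-type factors are known to bind such letters.
Col3a1: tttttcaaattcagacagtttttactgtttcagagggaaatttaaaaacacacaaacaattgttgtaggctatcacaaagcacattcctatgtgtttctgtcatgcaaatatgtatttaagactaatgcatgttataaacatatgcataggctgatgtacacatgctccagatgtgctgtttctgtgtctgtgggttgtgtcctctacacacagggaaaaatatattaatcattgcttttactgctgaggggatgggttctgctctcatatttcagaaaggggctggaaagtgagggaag
Col5a3: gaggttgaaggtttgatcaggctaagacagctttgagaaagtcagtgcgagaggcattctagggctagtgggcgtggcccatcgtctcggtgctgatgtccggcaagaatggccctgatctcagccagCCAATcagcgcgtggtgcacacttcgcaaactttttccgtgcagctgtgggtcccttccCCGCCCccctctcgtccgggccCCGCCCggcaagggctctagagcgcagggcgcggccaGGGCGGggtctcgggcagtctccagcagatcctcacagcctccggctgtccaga
The Col5a3 window held 1 CCAAT and 3 GGGCGG matches that did not overlap, and 63.3% G and C. The Col3a1 window held neither motif, had 37.7% G and C, and held 1 match of TATAAA, searched also as its complement TTTATA. Of all 32851 windows in the table, 37.4% held CCAAT, 35.7% GGGCGG and 13.6% TATAAA, searched on both strands. Of the 38 collagen windows, 34.2%, 60.5% and 13.2% held them. Of 10 windows of collagens that fell, 4 held CCAAT, 7 GGGCGG and 1 TATAAA, so the Col3a1 window does not stand for them. Of 2 windows of collagens that rose, 2 held CCAAT, 2 GGGCGG and 0 TATAAA. A difference between these sets was not tested. The median share of G and C was 59.8% in the collagen windows and 52.7% in all windows. These are letter matches and carry no evidence of binding.

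Among basement membrane genes, Col18a1 had by far the highest level of all collagens. It codes for the chain of type XVIII collagen, a heparan sulphate proteoglycan whose end fragment is endostatin, and hepatocytes are known to make it. Col18a1 had 102 FPKM in 6-month and 127 FPKM in 3-week liver and was not called; the authors' deposited table lists q = 0.49. It supplied 71.1% of the summed collagen FPKM at 6 months and 63.5% at 3 weeks. Its 3′ part overlaps 8825 bases of Slc19a1 on the other strand, which had 3.76 FPKM in 6-month and 3.87 FPKM in 3-week liver. The gene lies on chromosome 10 at 77052178 to 77166548 (ENSMUSG00000001435). The other multiplexin, Col15a1, had 2.58 FPKM in 6-month and 2.74 FPKM in 3-week liver and was not called.

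Of 5 type IV genes tested, 4 fell, and of the 2 multiplexins none was called; the difference between these families was not tested. Col4a1 and Col4a2 form together the ordinary type IV network found under endothelium and along sinusoids. Col4a1 fell to 3.33 FPKM in 6-month liver, against 7.25 in 3-week liver. Col4a2 fell to 2.14 FPKM in 6-month liver, against 4.73 in 3-week liver. The adult levels were 46% and 45.3% of the young ones. Col4a5, a chain of specialised basement membranes, fell to 0.217 FPKM in 6-month liver, against 1.22 in 3-week liver. It kept 17.8% of the young level, the smallest share among collagens that reached 1 FPKM at either age. Col4a5 passed that filter only through the 3-week value and could only be lower, so this rank rests partly on the filter. Its partners in such membranes, Col4a3 and Col4a4, were low. Col4a4 fell to 0.0303 FPKM in 6-month liver, against 0.118 in 3-week liver, and Col4a3 had 0.0863 and 0.224 FPKM at these ages and was not called. Col4a6 had 0.0187 FPKM in 6-month and 0.0489 FPKM in 3-week liver and was not tested.

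All type IV genes lie in pairs with their starts facing each other, an arrangement known in mammals. Col4a1 (ENSMUSG00000031502, chromosome 8, 11198423 to 11312826, minus strand) and Col4a2 (ENSMUSG00000031503, chromosome 8, 11312805 to 11449287, plus strand) overlap by 22 bases at their starts in the deposited coordinates. Both members of this pair fell. Their windows are shown because both genes read away from the same stretch of DNA. The Col4a1 window is chr8:11312777-11313076 on the minus strand and the Col4a2 window chr8:11312555-11312854 on the plus strand, with capitals as above.
Col4a1: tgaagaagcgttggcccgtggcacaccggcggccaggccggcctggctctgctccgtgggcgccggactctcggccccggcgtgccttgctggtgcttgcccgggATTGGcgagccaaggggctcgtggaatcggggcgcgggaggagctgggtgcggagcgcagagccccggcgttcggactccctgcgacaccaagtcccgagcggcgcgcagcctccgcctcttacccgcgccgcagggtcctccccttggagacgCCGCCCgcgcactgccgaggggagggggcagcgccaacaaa
Col4a2: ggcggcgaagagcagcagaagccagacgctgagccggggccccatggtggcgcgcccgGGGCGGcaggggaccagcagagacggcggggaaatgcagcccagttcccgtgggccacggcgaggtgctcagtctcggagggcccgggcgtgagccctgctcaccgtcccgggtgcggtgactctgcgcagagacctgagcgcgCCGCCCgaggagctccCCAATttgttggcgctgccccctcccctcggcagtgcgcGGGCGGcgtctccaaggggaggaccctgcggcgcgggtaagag
The windows share 78 bases, 11312777 to 11312854, read on opposite strands. These shared bases hold 1 GGGCGG match and no CCAAT match. The Col4a1 window held 1 CCAAT and 1 GGGCGG match and 74% G and C. The Col4a2 window held 1 CCAAT and 3 GGGCGG matches and 73.7% G and C, and TATAAA was found in neither. Col4a3 and Col4a4 are separated by 71 bases on chromosome 1 and Col4a5 and Col4a6 by 1308 bases on chromosome X, also head to head. In each of these pairs 1 gene fell and its partner was not called or not tested, with a lower value at 6 months.

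Type VI collagen forms beaded filaments that link cells to fibrils and basement membranes. Col6a1 fell to 0.971 FPKM in 6-month liver, against 2.78 in 3-week liver. Col6a2 fell to 0.546 FPKM in 6-month liver, against 1.54 in 3-week liver. Both kept about the same share of the young level, 34.9% and 35.5%. Their partner Col6a3 had 1.34 FPKM in 6-month and 2.16 FPKM in 3-week liver, or 62.2% of the young level, and was not called; its listed q was 0.759 in the authors' deposited table. The related chains Col6a4, Col6a5 and Col6a6 were at 0.0569 FPKM or less at both ages and were not tested.

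The FACIT collagens, which decorate the surface of fibrils, had no called member among 5 tested. At an unadjusted p under 0.05 in the authors' deposited table, 1 was lower and 0 were higher. The share of all genes at this unadjusted threshold was not computed. Counts at it, here and below, therefore have no background to be read against. Col14a1 was the second collagen in order of level at 6 months and the third at 3 weeks. It had 11.1 FPKM in 6-month and 15.6 FPKM in 3-week liver, and the authors' deposited table lists q = 0.134. Col16a1 had 1.32 FPKM in 6-month and 1.54 FPKM in 3-week liver, and Col12a1 had 0.62 and 0.644 FPKM at these ages. The transmembrane collagen Col13a1 had 0.915 FPKM in 6-month and 1.04 FPKM in 3-week liver and was not called. Col25a1, another transmembrane collagen, rose to 0.162 FPKM in 6-month liver, against 0.0421 in 3-week liver, at a level far under 1 FPKM. Col26a1 had 0.195 FPKM in 6-month and 0.13 FPKM in 3-week liver and was not called. The 26 members that did not qualify for the 1 FPKM filter had at most 0.62 FPKM in 6-month and 0.644 FPKM in 3-week liver. Of these, 13 were not tested by the authors. Col9a2 is listed at 0 at 6 months and Col19a1 at 0 at 3 weeks, and no member is listed at 0 at both ages.

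As a share of the young sum, the adult sum was lowest in type IV, type VI and fibrillar genes, while the multiplexins had the largest difference in FPKM, with 104.6 in 6-month and 129.9 in 3-week liver. The 11 fibrillar genes summed to 15.2 FPKM in 6-month and 30.4 FPKM in 3-week liver, or 49.95% of the young sum. The 6 type IV genes summed to 5.82 FPKM in 6-month and 13.6 FPKM in 3-week liver, or 42.9%. Type VI genes summed to 2.94 and 6.54 FPKM at these ages, or 44.9%, and FACIT genes to 13.2 and 18.1 FPKM, or 73.1%. The sum of all 44 genes was 143 FPKM in 6-month and 200.2 FPKM in 3-week liver, or 71.6%. Without Col18a1, left out after its level was seen, it was 41.4 FPKM in 6-month and 73.02 FPKM in 3-week liver, or 56.7%. These sums carry no test.

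**Figure D3:**
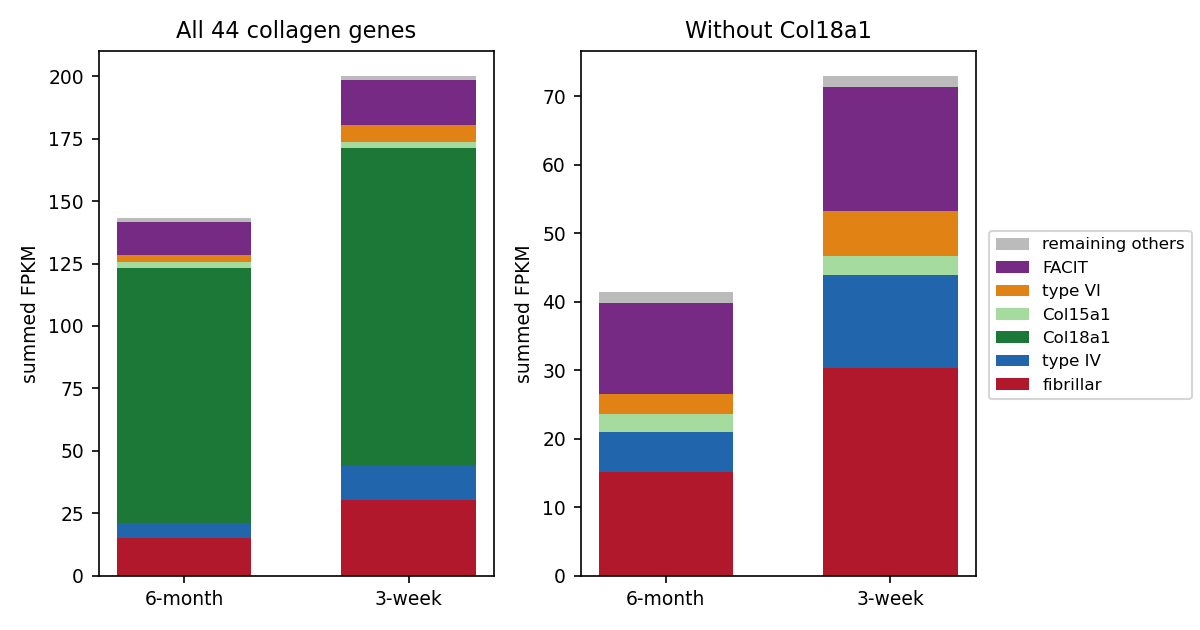
Summed FPKM of the collagen families (stacked bars from 0) in 6-month and 3-week liver, for all 44 genes on the left and without Col18a1 on the right. Col18a1 makes up 71.1% of the 6-month bar and 63.5% of the 3-week bar; without it the sums are 41.4 and 73.02 FPKM.

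Ratios between chains of the same collagen type were close between the ages for some pairs and not for others. The ratio of Col4a1 to Col4a2 FPKM was 1.56 in 6-month and 1.53 in 3-week liver, and that of Col6a1 to Col6a2 was 1.78 and 1.81. The ratio of Col1a1 to Col1a2 was 0.477 in 6-month and 0.412 in 3-week liver, although the type I molecule holds more Col1a1 than Col1a2 chains. The ratio of Col5a1 to Col5a2 was 0.842 in 6-month and 0.694 in 3-week liver. In contrast, the ratio of Col5a3 to Col5a1 was 6.55 in 6-month and 1.43 in 3-week liver, a change of 4.59-fold, and that of Col5a3 to Col5a2 was 5.51 and 0.991. The ratio of Col6a3 to Col6a1 was 1.38 in 6-month and 0.776 in 3-week liver. These ratios come from single deposited values and have no error.

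**Figure D4:**
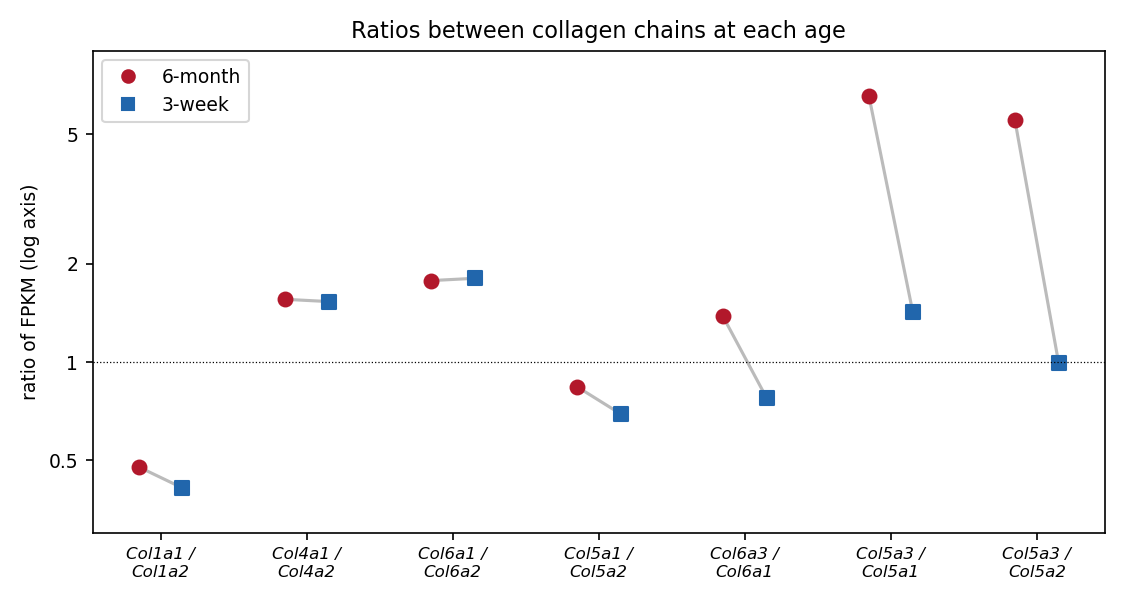
Ratio of the FPKM values of collagen chains (log axis) in 6-month liver (red circles) and 3-week liver (blue squares), with equal levels at the dotted line. The ratios Col4a1 to Col4a2 and Col6a1 to Col6a2 are nearly level between the ages, while both Col5a3 ratios are higher at 6 months, at 6.55 and 5.51.

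The members lie on 15 chromosomes. Within 200000 bases of each other, 8 neighbouring pairs were found. Both genes fell in 3 of them: Col4a1 and Col4a2, Col6a1 and Col6a2 on chromosome 10, and Col3a1 and Col5a2, which lie 24614 bases apart tail to tail on chromosome 1. Neither gene that rose, Col5a3 or Col25a1, lies in such a pair, so no pair could go opposite ways by call. Apart from the partner of Col4a1 and Col4a2, Slc19a1 was the only overlapping gene of 1 FPKM or more at any of the 18 filtered members. The sources used here do not say whether counting used strand, so reads of overlapping genes cannot be told apart.

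Genes that fold, process, crosslink and break down collagen were examined as lists. Of 38 such genes that passed the same filter, 9 fell, 1 rose and 28 were not called, beside the 3.48% fallen and 3.99% risen of all genes. Of the 38, 33 had at least 1 FPKM at both ages, and among these 5 fell and 1 rose; the other 5 passed only through the 3-week value and could only be lower. Among 14 genes of folding and chain modification, 1 fell and 1 rose. Serpinh1, the collagen-specific chaperone HSP47, fell to 5.19 FPKM in 6-month liver, against 11.1 in 3-week liver. P4ha2, a catalytic subunit of prolyl 4-hydroxylase, rose to 2.07 FPKM in 6-month liver, against 1.03 in 3-week liver. Its counterpart P4ha1 had 4.38 and 4.11 FPKM at these ages and was not called. In this list of 14, 4 genes were lower and 1 was higher at an unadjusted p under 0.05 in the authors' deposited table. The higher one was P4ha2. Besides Serpinh1, the lower ones were Lepre1, Crtap and Ppib, which were not called. Their 6-month levels were 56.9%, 61.2% and 73.7% of the young ones.

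Of 12 processing and crosslinking genes, 7 fell and none rose. The authors' deposited table lists the same counts, 7 lower and 0 higher, at an unadjusted p under 0.05. Of the 12, 8 had at least 1 FPKM at both ages, and 4 of these fell. The other 4, Loxl4, Fmod, Pxdn and Adamts2, passed only through the 3-week value and could only be lower. The lysyl oxidase relative Loxl4, an enzyme that starts collagen crosslinks, fell to 0.695 FPKM in 6-month liver, against 4.73 in 3-week liver. The collagen-binding matricellular gene Sparc kept 25.5% of its young level. Fmod and Lum, small proteoglycans on the fibril surface, fell to 0.487 and 6.08 FPKM in 6-month liver, against 1.92 and 11.7 in 3-week liver. The procollagen proteinase Bmp1 and its enhancer Pcolce fell to 15.5 and 3.62 FPKM in 6-month liver, against 21.9 and 6.08 in 3-week liver. Pxdn, the peroxidasin that crosslinks type IV collagen, fell to 0.994 FPKM in 6-month liver, against 2.17 in 3-week liver, beside the fall of Col4a1 and Col4a2. Under 1 FPKM at both ages, Lox, Loxl1 and Loxl2 also fell, to 0.151, 0.338 and 0.196 FPKM in 6-month liver, against 0.515, 0.637 and 0.476 in 3-week liver. The proteoglycans Dcn and Bgn, the most abundant of the list, had 109.7 and 51.6 FPKM in 6-month liver and 111 and 60.2 FPKM in 3-week liver and were not called.

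Of 9 breakdown and uptake genes, 1 fell and none rose. It was the gelatinase Mmp2, with 0.734 FPKM in 6-month and 1.96 FPKM in 3-week liver, which also passed only through the 3-week value. At an unadjusted p under 0.05 in the authors' deposited table, 3 of the 9 were lower and 0 higher. Besides Mmp2, the lower ones were Timp2 and Mmp14, which were not called. They had 3.35 and 7.43 FPKM in 6-month liver and 5.25 and 9.60 FPKM in 3-week liver. The collagenase Mmp13, under 1 FPKM at both ages, rose to 0.843 FPKM in 6-month liver, against 0.123 in 3-week liver. Of 3 collagen receptor genes that passed the filter, none was called in the authors' deposited table, where 0 were lower and 1 was higher at an unadjusted p under 0.05. Itgb1 had 75.6 FPKM in 6-month and 66.4 FPKM in 3-week liver, Itga1 had 3.22 and 4.14 FPKM and the inhibitory receptor Lair1 had 4.06 and 2.33 FPKM at these ages. The collagen-binding kinase Ddr1, under 1 FPKM at both ages, fell to 0.309 FPKM in 6-month liver, against 0.637 in 3-week liver. In the authors' deposited table, called pathway genes had q-values between 0.00189 and 0.0475.

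**Figure D5:**
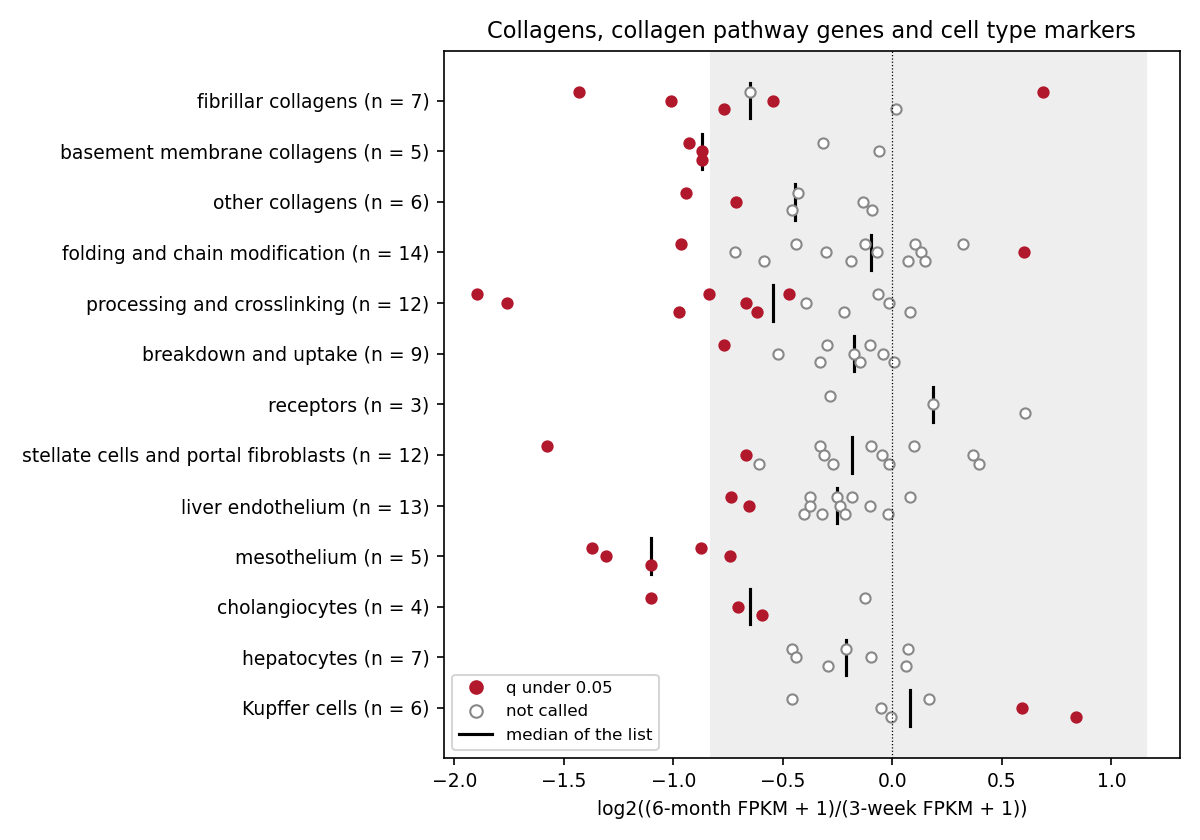
Change in FPKM between 6-month and 3-week liver on the log2(FPKM + 1) scale, 1 point per gene of at least 1 FPKM at either age, for collagen classes, collagen pathway lists and cell type markers; red points have a q-value under 0.05 in the authors' deposited table, black bars are list medians and the grey band holds the central 95% of 11741 genes. Called collagens lie below 0 except Col5a3 at 0.69, and Sparc and Loxl4 lie lowest in the processing list, at -1.89 and -1.76.

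Markers of liver cell types were read beside these changes, where 3.48% of all genes so filtered fell and 3.99% rose. These shares are for a q-value under 0.05 and give no background for the counts at an unadjusted p. Of 12 stellate cell and portal fibroblast markers that passed the filter, 2 fell and none rose. The 17 listed summed to 211 FPKM in 6-month and 245 FPKM in 3-week liver. Dcn, which is also in the processing list and was not called, gave 109.7 and 111 FPKM of these sums. The markers that fell were the smooth muscle actin Acta2 and the elastin gene Eln. Both passed only through the 3-week value and could only be lower. Of the 8 with at least 1 FPKM at both ages none was called. Fbln2, under 1 FPKM at both ages, also fell, to 0.399 FPKM in 6-month liver, against 0.943 in 3-week liver. At an unadjusted p under 0.05 in the authors' deposited table, 6 of the 12 were lower and 2 higher. Besides Acta2, Eln and Lrat, the lower ones were Ecm1, Colec11 and Pdgfrb. These had 42.4, 13.8 and 0.91 FPKM in 6-month liver and 65.1, 17.6 and 1.31 FPKM in 3-week liver. The higher ones were Cygb, with 1.77 FPKM in 6-month and 1.10 FPKM in 3-week liver, and Thy1, with 1.08 and 0.613 FPKM at these ages. The stellate cell markers Lrat, Reln and Rgs5 had 4.91, 18.3 and 13.0 FPKM in 6-month liver and 6.34, 19.6 and 12.1 FPKM in 3-week liver, and were not called. Of 13 endothelial markers, 2 fell, Lyve1 and Oit3, and the list summed to 117 FPKM in 6-month and 144 FPKM in 3-week liver. In the authors' deposited table, 4 of the 13 were lower and 0 higher at an unadjusted p under 0.05, among them Tek and Ptprb. All 5 mesothelial markers that passed the filter fell, and the 7 listed summed to 5.21 FPKM in 6-month and 17.3 FPKM in 3-week liver, or 30.1% of the young sum. Msln, Upk3b and Gpm6a had at least 1 FPKM at both ages, while Krt19 and Upk1b passed only through the 3-week value and could only be lower. Lrrn4, under 1 FPKM at both ages, also fell, to 0.342 FPKM in 6-month liver, against 0.891 in 3-week liver. Of 8 cholangiocyte markers listed, 4 passed the filter and 3 fell, Krt19, Krt7 and Krt23. All of these passed only through the 3-week value and could only be lower, and Krt19 is also 1 of the mesothelial markers above. Spp1, which also passed, had 41.3 FPKM in 6-month and 45.1 FPKM in 3-week liver and was not called. Under 1 FPKM at both ages, Sox9, Epcam and Cftr were not called and Sctr was not tested. Sox9, Epcam and Cftr had 0.851, 0.455 and 0.0697 FPKM in 6-month liver and 0.747, 0.637 and 0.0707 FPKM in 3-week liver. The list had a sum of 43.99 FPKM in 6-month and 51.2 FPKM in 3-week liver. None of 7 hepatocyte markers was called in the authors' deposited table, where 1 was lower and 0 were higher at an unadjusted p under 0.05. Of 6 Kupffer cell markers, 2 rose, Marco and Cd5l, and none fell. At an unadjusted p under 0.05 in the authors' deposited table, 2 were higher and 1 lower, Clec4f, with 57.7 FPKM in 6-month and 79.6 FPKM in 3-week liver. Of all these lists, only the hepatocyte list had a marker listed at 0, Alb. The part of these cell types in the collagen changes was not tested.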

How the data were processed

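The authors deposited 1 gene table for 6 liver libraries, 3 per age. Its FPKM values, scaled for transcript length and mapped fragments, are 1 per gene and age and come from TopHat2 2.0.11, Cufflinks 2.2.1 and Cuffdiff on GRCm38, per the submitters' processing notes. The sources used here do not name the annotation release, strand setting, library normalization or dispersion model. The p-value, q-value and test score of each gene were deposited by the authors from their own test. The labels' protocols give an average depth near 30 M reads per library; the number of reads behind each value is not in the table. Counts and values per library were not used, so errors rest on the authors' p-value and q-value. Each library is a pool, so these values cannot measure the spread between single mice. How the test modelled the spread between pools is not stated in the sources used here.

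Folds were computed with pandas 2.3.3 as log2((6-month FPKM + 1)/(3-week FPKM + 1)), over genes tested by the authors with at least 1 FPKM at either age unless stated. The fold and adjustment functions were tested on simulated data. Members, lists and rules were chosen with earlier results of these data known. Named genes are all members past the filter or called, all called pathway genes and all called markers. For mesothelium these are more than the 4 called markers per cell type first planned. Other members, and markers and pathway genes that were not called, were named after their values were seen. All 44 members were found in GENCODE M21 at the same place. Alternatives were other filters, thresholds, pseudocounts, class borders and centring.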

Additional observations from a re-analysis of the deposited data

How the results depend on the processing

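No paired analysis was possible because the table gives 1 value per age, and for the same reason no library could be left out. The replicate block was therefore not run. With no spread between replicates, a median, sum or count was taken as moved when it changed by over 1.5 times. Of the recomputed medians, sums and counts, 47 stayed within that and 17 moved. No median reversed direction, which sums and counts could not do by this rule. A pseudocount cannot change the direction of a gene or of these medians, so the 3 other pseudocounts could not test either. After centring on the median of all genes past the filter, 0.0033, the 20 collagens past the filter or called kept their direction. That shift is smaller than the smallest of their changes, 0.014 for Col27a1, so it could not reverse any of them. The medians were also further from 0 than that shift, so centring could not reverse them. The number of collagens that fell, 9, was 2 with a minimum of 5 FPKM and 4 with at least 1 FPKM at both ages. The limit of 1 FPKM at both ages and the sums without Col18a1 were added after seeing the data. The number that rose, 1, was 2 with no minimum and 0 with a minimum of 5 FPKM. With pseudocounts of 0.1 and 0 the median log2 change was -1.07 and -1.13 over the filtered collagens (-0.6 with 1) and -1.08 and -1.22 over the fibrillar ones (-0.65 with 1). With no minimum on FPKM it was -0.13 over all tested collagens, -0.32 for basement membrane (-0.87 with the filter) and -0.094 for other collagens (-0.44 with the filter), since genes near 0 enter. With a minimum of 5 FPKM the fibrillar median was -1.43, from Col3a1 alone. With basement membrane taken as type IV alone its sum at 6 months was 42.9% of that at 3 weeks, against 77% with the multiplexins. Of pathway genes, 9 fell and 1 rose; 5 fell and 0 rose with a minimum of 5 FPKM, 2 rose with no minimum, and 0 rose at a q-value under 0.01. The cause of these moves was not tested where the setting itself does not show it. Without read counts per gene, no counting error can be given for genes under 1 FPKM, among them Col4a4 and Col25a1.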
